A study of Gallus gallus with 30 samples.

Results

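Right otocysts that received the intracellular domain of NOTCH1 (NICD1) were compared with right otocysts that received the red fluorescent protein mRFP1 alone, 24 h after electroporation. The comparison holds 6 of the 30 libraries of the series, 3 NICD1 otocysts (embryos 19, 21 and 22) and 3 mRFP1 otocysts (embryos 4, 23 and 24), chosen by label as the right side of the embryos collected at 24 h. All 6 embryos were White Leghorn chickens, electroporated in ovo at the otic cup stage and labelled embryonic day 3 at collection. The NICD1 plasmid carried the chicken NICD1 sequence followed by an IRES and mRFP1, and the control plasmid carried the IRES and mRFP1, so the plasmid backbone, the reporter, the electroporated side and the time were shared. Each library came from a single otocyst, an epithelial vesicle trimmed of the tissue around it. The otocysts sequenced had been picked for bright and widespread fluorescence. Electroporation reaches only some of the cells, so each library mixed transfected with untransfected epithelium. Both plasmids had a pCAG backbone, which carries the CAG promoter, active in most cell types. The p-values measure the spread between separate embryos, pooled in the main fit over all 15 right otocysts of the series. Those outside this comparison were NICD1 otocysts at 6 h and otocysts cultured with the Notch inhibitor LY411575 for 6 or 24 h. The spread is therefore not that of the 6 embryos alone.

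Notch receptors are cleaved when a ligand on a neighbouring cell binds them, and the freed intracellular domain enters the nucleus, where it joins the DNA-binding protein RBPJ and switches on HES and HEY genes. HES and HEY proteins are transcriptional repressors. In the otocyst, Notch signalling holds cells back from becoming neuroblasts through DLL1 (lateral inhibition), and it sustains prosensory patches through JAG1 (lateral induction). Expressing NICD1 bypasses the ligand and the cleavage.

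The 6 right libraries held between 9071106 and 12845942 estimated counts, with 20344 to 21492 transcripts at 1 count or more. The first principal component of log2 CPM (counts scaled to the library total) took 41.1% of the variance and did not follow the plasmid. It placed embryo 19 of the NICD1 group with mRFP1 embryos 4 and 24, opposite NICD1 embryos 21 and 22 and mRFP1 embryo 23. The TMM scaling factors of the former 3 lay between 0.880 and 0.953 and those of the latter 3 between 1.02 and 1.03. All 6 markers of otic epithelium, all 7 of mesenchyme and all 4 of otic neuroblasts were above 0 in all 6 libraries. Summed otic markers (SOX10, SOHO-1, LMX1A, DLX5, OTOP1, SOX9) ran from 452 to 941 TPM in NICD1 and from 802 to 909.5 TPM in mRFP1. TPM is a level scaled to the library total and corrected for transcript length. NICD1 embryos 19 and 21 had lower otic sums than every mRFP1 embryo, and NICD1 embryo 22 had a higher one. Summed mesenchymal markers ran from 392.3 to 544 TPM in NICD1 and from 273 to 629 TPM in mRFP1. Summed neuroblast markers ran from 143 to 192 TPM and from 69.5 to 201 TPM in the same order. In whole otocysts, fewer cells of a type and less RNA per cell cannot be told apart.

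Of 20326 transcripts tested with edgeR's quasi-likelihood test, 0 (0%) passed an adjusted p of 0.05. An unadjusted p under 0.05 was reached by 825 transcripts (4.06%), 461 higher (2.27%) and 364 lower (1.79%) in NICD1, and 50.2% of all transcripts had a fitted fold change above 0. With limma-voom 0 passed and 649 (3.19%) had an unadjusted p under 0.05, whereas DESeq2 called 66 (0.325%), 34 higher (0.167%) and 32 lower (0.157%). Among those 66, 37 were at 0 TPM in at least 1 of the 6 libraries, and 12 combined a mean of 5 CPM with TPM ranges that did not overlap between the groups. In what follows, "higher" and "lower" describe levels, since no transcript passed the edgeR test in the right otocysts.

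NOTCH1, the receptor whose intracellular part the plasmid encodes, was at 32.3, 75.8 and 88.4 TPM in NICD1 embryos 19, 21 and 22 and at 19.6, 55.5 and 16.9 TPM in mRFP1 embryos 4, 23 and 24. The groups overlapped, because mRFP1 embryo 23 lay above NICD1 embryo 19. RNA of the plasmid and of the endogenous gene cannot be told apart in these values. The paper counted the intracellular and extracellular sequences separately, and reported that only the intracellular part rose in its NICD1 sets. The paper also reported a decrease of NOTCH1 and JAG2 after electroporation of the control plasmid. For that reason it left NOTCH1 out of further work on its NICD1 sets. The NOTCH1 counts used here were fractional in all 6 libraries, so reads were shared with other transcripts. The fitted log2 fold change was 0.97 ± 0.39 (SE; edgeR unadjusted p = 0.0283, adjusted p = 1.00), and 0.57 once a trend of each library with transcript length was removed. The NOTCH1 transcript is 9865 bases long, and across all transcripts the fold change was higher for longer transcripts (Spearman's rho 0.24 over 20326 transcripts, which are not independent replicates). On the left NOTCH1 was at 35.7, 51.4 and 62.3 TPM in the NICD1 embryos and at 45.4, 55.6 and 27.2 TPM in the mRFP1 embryos. Its right side was above the left in 2 of 3 NICD1 and 0 of 3 mRFP1 embryos.

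The HES5 genes, repressors that are among the most direct outputs of Notch in the ear, included the named transcript with the smallest p. HES5.2 was at 35.1, 129.8 and 63.5 TPM in the NICD1 otocysts and at 8.88, 4.26 and 11.04 TPM in the mRFP1 otocysts, a mean of 76.1 ± 48.6 against 8.06 ± 3.46 TPM (SD, n = 3 each). Every NICD1 otocyst lay above every mRFP1 otocyst, and the lowest of the former was over 3 times the highest of the latter. The log2 fold change was 2.97 ± 0.64 (edgeR unadjusted p = 0.000483, rank 6 of all transcripts, adjusted p = 1.00). DESeq2 gave HES5.2 an adjusted p of 0.00408, past the threshold that edgeR did not reach. The study had picked HES5.2 on libraries that include these right NICD1 otocysts, so the contrast is not independent of that selection.

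HES5.3 was at 114, 215 and 205 TPM in NICD1 and at 72.7, 66.0 and 109.9 TPM in mRFP1. The ranges were apart, but NICD1 embryo 19 and mRFP1 embryo 24 were within a few TPM of each other. HES5.1 was at 51.0, 163 and 115 TPM in NICD1 and at 30.4, 26.4 and 55.1 TPM in mRFP1, and those same otocysts, 19 and 24, overlapped. The log2 fold changes were 0.86 ± 0.36 for HES5.3 and 1.29 ± 0.52 for HES5.1, with edgeR unadjusted p = 0.0332 and 0.0292. In all 3 HES5 transcripts embryo 21 was the highest and embryo 19 the lowest of the NICD1 otocysts. The counts of the 3 transcripts were fractional in all 6 libraries, which arises when reads are shared among transcripts with sequence in common, so the split between them is uncertain. The sum of the HES5 transcripts does not depend on a division among them. It was 200.2, 507 and 383 TPM in NICD1 against 112, 96.6 and 176 TPM in mRFP1, with no overlap between the right groups. HES5.2 made up 16.6 to 25.6% of that sum in the NICD1 otocysts and 4.41 to 7.93% in the mRFP1 otocysts. On the left the sum was 91.6, 106 and 241 TPM in the NICD1 embryos and 297, 138 and 163 TPM in the mRFP1 embryos. Left otocysts 22 and 4 thus lay above right NICD1 otocyst 19.

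**Figure D1:**
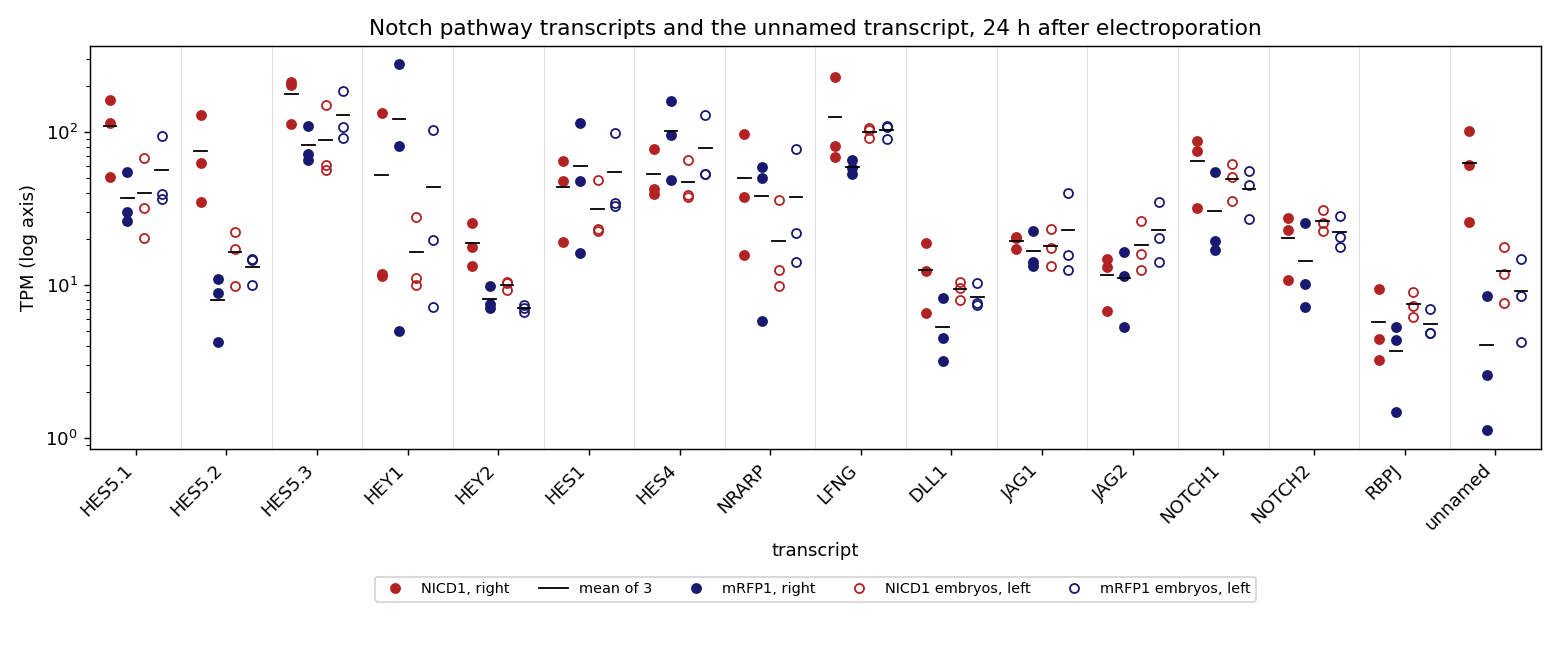
Levels of 15 Notch pathway transcripts and of the unnamed transcript ENSGALT00000092788.1 (unnamed) in TPM on a log axis, with filled points for right and open points for left otocysts, NICD1 embryos in red, mRFP1 embryos in blue and a bar at the mean of 3. HES5.2 and the unnamed transcript have their right-hand NICD1 points above every other point of the column, whereas HEY1, HES1, HES4 and NRARP are spread widely within each group.

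HEY2, another repressor of the same family, was at 17.7, 13.3 and 25.6 TPM in NICD1 and at 9.88, 7.10 and 7.58 TPM in mRFP1. All NICD1 otocysts were above all mRFP1 otocysts, with a log2 fold change of 1.02 ± 0.42 (edgeR unadjusted p = 0.0314). The left otocysts of these embryos were also apart, at 10.4, 10.6 and 9.31 TPM against 6.65, 7.47 and 7.11 TPM. LFNG, a glycosyltransferase that tunes how Notch receptors respond to ligands, was at 68.6, 230.4 and 81.9 TPM in NICD1 and at 58.7, 66.4 and 53.5 TPM in mRFP1. Only embryo 21 stood well above the rest, and without it the log2 fold change went from 0.91 ± 0.42 to 0.19. On the left LFNG was at 106, 92.4 and 103 TPM in the NICD1 embryos and at 109, 110 and 90.6 TPM in the mRFP1 embryos. Its right side was above the left in 1 of 3 NICD1 and 0 of 3 mRFP1 embryos.

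The other HES and HEY transcripts did not separate by plasmid. HEY1 was at 134, 11.9 and 11.5 TPM in NICD1 and at 279, 4.99 and 81.1 TPM in mRFP1. Its high values were those of embryos 19, 4 and 24, the libraries that the first principal component set together, and its log2 fold change was -1.32 ± 1.09. NRARP, a feedback inhibitor that binds the NICD complex, had the same high libraries at 97.8, 59.2 and 50.3 TPM, with 37.8 and 15.9 TPM in NICD1 embryos 21 and 22 and 5.87 TPM in mRFP1 embryo 23. Its log2 fold change was 0.20 ± 0.80 on the right and 1.24 ± 0.64 with each embryo's left side taken into account. Without embryos 19, 4 and 24 it was 2.14, in a fit that leaves mRFP1 embryo 23 alone against NICD1 embryos 21 and 22. NRARP was above the left side in 3 of 3 NICD1 and 1 of 3 mRFP1 embryos. The study had picked NRARP on the right-against-left difference of these NICD1 embryos, so neither that count nor the 1.24 is independent of the selection. HES1 was likewise mixed, between 19.3 and 65.3 TPM in NICD1 and between 16.3 and 116 TPM in mRFP1.

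HES4 (Hairy1 of the chick) was lower in the NICD1 otocysts, at 42.8, 39.5 and 77.8 TPM against 162, 49.2 and 96.0 TPM. The ranges overlapped at NICD1 embryo 22 and mRFP1 embryo 23. The log2 fold change was -1.17 ± 0.38 (edgeR unadjusted p = 0.00886, adjusted p = 1.00), and in the left otocysts, which had received no plasmid, it was -0.78 ± 0.31. Leaving out embryos 19, 4 and 24 together, with mRFP1 embryo 23 then the only control, turned it to 0.21.

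Of the ligands, DLL1 was at 6.57, 19.0 and 12.4 TPM in NICD1 and at 3.18, 8.22 and 4.54 TPM in mRFP1. Embryo 19 fell between the mRFP1 values, so the groups overlapped, and the log2 fold change was 1.09 ± 0.33 (edgeR unadjusted p = 0.00556). DLL1 was above the left side in 2 of 3 NICD1 and 0 of 3 mRFP1 embryos. JAG1 lay between 17.2 and 20.8 TPM in NICD1 and between 13.4 and 22.7 TPM in mRFP1, and JAG2 between 6.83 and 14.9 TPM and between 5.36 and 16.6 TPM. The log2 fold changes of both Jagged ligands, 0.05 ± 0.24 and -0.06 ± 0.36, were smaller than their errors. NOTCH2 lay between 10.8 and 27.5 TPM in NICD1 and between 7.24 and 25.6 TPM in mRFP1, with the lower values again in embryos 19, 4 and 24. RBPJ, the DNA-binding partner of NICD, was low in all 6 otocysts, from 1.48 to 9.54 TPM, with a log2 fold change of 0.48 ± 0.40. The counts of these NOTCH2 and RBPJ transcripts were fractional in all 6 libraries, so their levels need not be those of the genes.

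Over the 8 targets and effectors, 5 were higher and 3 lower, 0 passed the edgeR test, and the median log2 fold change was 0.53, beside 0.00 over all transcripts tested. TPM ranges lay apart with NICD1 higher for 3 of the 8 (HES5.2, HES5.3 and LFNG) and with NICD1 lower for none, where 4.47% and 1.70% of all tested transcripts did so. The median was 1.00 with each embryo's left side taken into account and 1.42 without embryos 19, 4 and 24. The latter fit was chosen after seeing the data and leaves mRFP1 embryo 23 as the only control. That embryo had the lowest mRFP1 level of all 8 but LFNG, so the median depends on which control was kept. On the left side the median of the same 8 was -0.69. HES5.2 and NRARP also belong to a list of transcripts that the study picked because the right and left sides of these NICD1 embryos differed. Their right-against-left pattern in those embryos was thus part of how they were picked, and so were their right NICD1 levels. Genes that the study called between the sides of the mRFP1 embryos had been removed from that list. Over the 5 receptors, ligands and RBPJ, 4 were higher, 0 passed, none had ranges apart and the median was 0.48, against 0.19 on the left.

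The smallest p of the right otocysts belonged to ENSGALT00000092788.1, a transcript of 7845 bases that the sources used here do not pair with a gene name. It was at 26.0, 61.1 and 101 TPM in NICD1 and at 2.59, 8.58 and 1.13 TPM in mRFP1. The groups were far apart, and the NICD1 values also exceeded all 6 left otocysts, which ran from 4.28 to 17.8 TPM. The mean of NICD1 was 15.3 times that of mRFP1, with a log2 fold change of 3.85 ± 0.66 (edgeR unadjusted p = 6.31e-05, adjusted p = 0.815). DESeq2 gave it an adjusted p of 2.45e-07. Its counts were fractional in all 6 libraries, so reads were shared with other transcripts. Within each group its right levels ranked the embryos in the same order as those of NOTCH1. Whether any of its reads came from plasmid RNA was not tested.

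**Figure D2:**
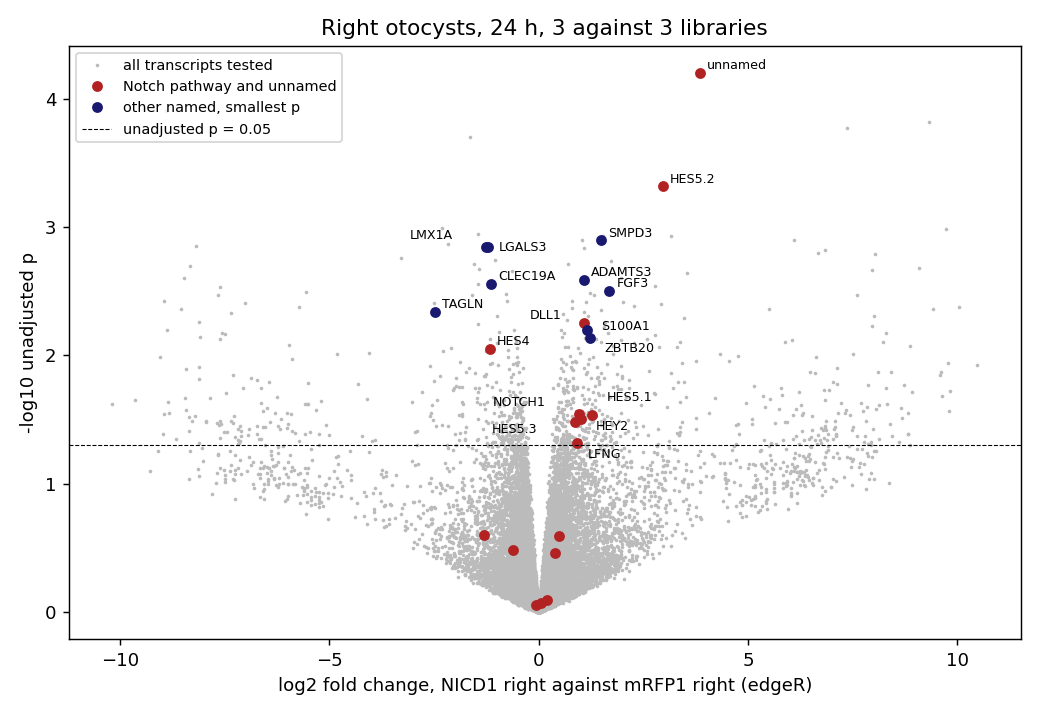
Fitted log2 fold change of NICD1 against mRFP1 right otocysts (x axis) and -log10 of the unadjusted edgeR p (y axis) for 20326 transcripts in grey, with Notch pathway transcripts and the unnamed transcript in red and the other named transcripts with the smallest p in blue. The unnamed transcript lies highest of all and HES5.2 highest of the named ones, while none passes the adjusted threshold.

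Outside the Notch pathway, 9 further named transcripts had the smallest p among those with a mean of at least 5 CPM and separate ranges, and 5 of them were higher in NICD1. FGF3, a secreted growth factor of otic induction and early patterning, was at 62.7, 35.8 and 21.7 TPM in NICD1 and at 7.86, 8.16 and 16.7 TPM in mRFP1. Embryo 19 had the highest level here, unlike the order seen in HES5, and the log2 fold change was 1.69 ± 0.47 (edgeR unadjusted p = 0.00315, adjusted p = 1.00). SMPD3, a neutral sphingomyelinase, was at 18.7, 30.7 and 18.7 TPM against 7.39, 12.1 and 3.13 TPM, with a log2 fold change of 1.49 ± 0.36. The left levels of SMPD3 were 33.5, 15.7 and 46.1 TPM in the NICD1 embryos and 16.2, 27.4 and 10.9 TPM in the mRFP1 embryos, so the right side was below the left in 2 of 3 and 3 of 3 embryos. The left fold change was 0.77 ± 0.44, and DESeq2 called the right one (adjusted p = 0.0298).

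ADAMTS3, a protease that processes procollagen, was at 5.38, 8.74 and 9.07 TPM in NICD1 and at 3.09, 4.41 and 2.42 TPM in mRFP1. Its right side was above the left in 2 of 3 NICD1 and 0 of 3 mRFP1 embryos. S100A1, a calcium-binding protein, was at 360.0, 258 and 411 TPM against 86.6, 209 and 122 TPM. Left levels of S100A1 were 392, 216 and 752 TPM in the NICD1 embryos and 192, 447 and 189 TPM in the mRFP1 embryos. The right side of S100A1 was above the left in 1 of 3 NICD1 and 0 of 3 mRFP1 embryos. ZBTB20, a zinc-finger repressor, was at 6.97, 16.2 and 17.8 TPM against 4.43, 6.23 and 4.66 TPM. The lowest NICD1 value of ZBTB20, in embryo 19, was close to the highest mRFP1 value, in embryo 23, and the left otocysts did not overlap either, with NICD1 embryos again higher. The log2 fold changes were 1.07 ± 0.29, 1.15 ± 0.35 and 1.23 ± 0.39.

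The other 4 were lower in NICD1. LMX1A, a LIM-homeodomain factor of the non-sensory and dorsal otocyst, was at 61.2, 47.9 and 56.0 TPM in NICD1 and at 147, 143 and 73.3 TPM in mRFP1. The NICD1 otocysts were tightly grouped, at 55.0 ± 6.69 against 121 ± 41.3 TPM (SD, n = 3 each), and each lay below its own left otocyst (144, 107 and 112 TPM). LMX1A is on the list that was picked on that right-against-left difference, so the latter was fixed by the selection. The right NICD1 levels entered that selection, so the contrast with mRFP1 is not independent of it either. The log2 fold change was -1.26 ± 0.31 (edgeR unadjusted p = 0.00142, adjusted p = 1.00), against -0.29 ± 0.38 on the left, and DESeq2 called it with an adjusted p of 0.0297.

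LGALS3, the carbohydrate-binding galectin-3, was at 14.5, 8.80 and 12.8 TPM in NICD1 and at 26.5, 27.7 and 21.9 TPM in mRFP1. CLEC19A, a C-type lectin, was at 121, 67.8 and 89.8 TPM against 174, 216 and 171 TPM. Both lectins were also at lower means in the left otocysts of the NICD1 embryos, with left log2 fold changes of -0.86 ± 0.32 and -0.54 ± 0.33 beside -1.21 ± 0.30 and -1.15 ± 0.31 on the right. TAGLN, an actin-binding protein of smooth muscle and mesenchyme, was at 3.86, 3.28 and 2.31 TPM in NICD1 and at 31.8, 8.94 and 6.63 TPM in mRFP1. The value of mRFP1 embryo 4 was far above the others, and its left otocyst was high as well at 16.4 TPM. DESeq2 gave LGALS3 an adjusted p of 0.0409.

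**Figure D3:**
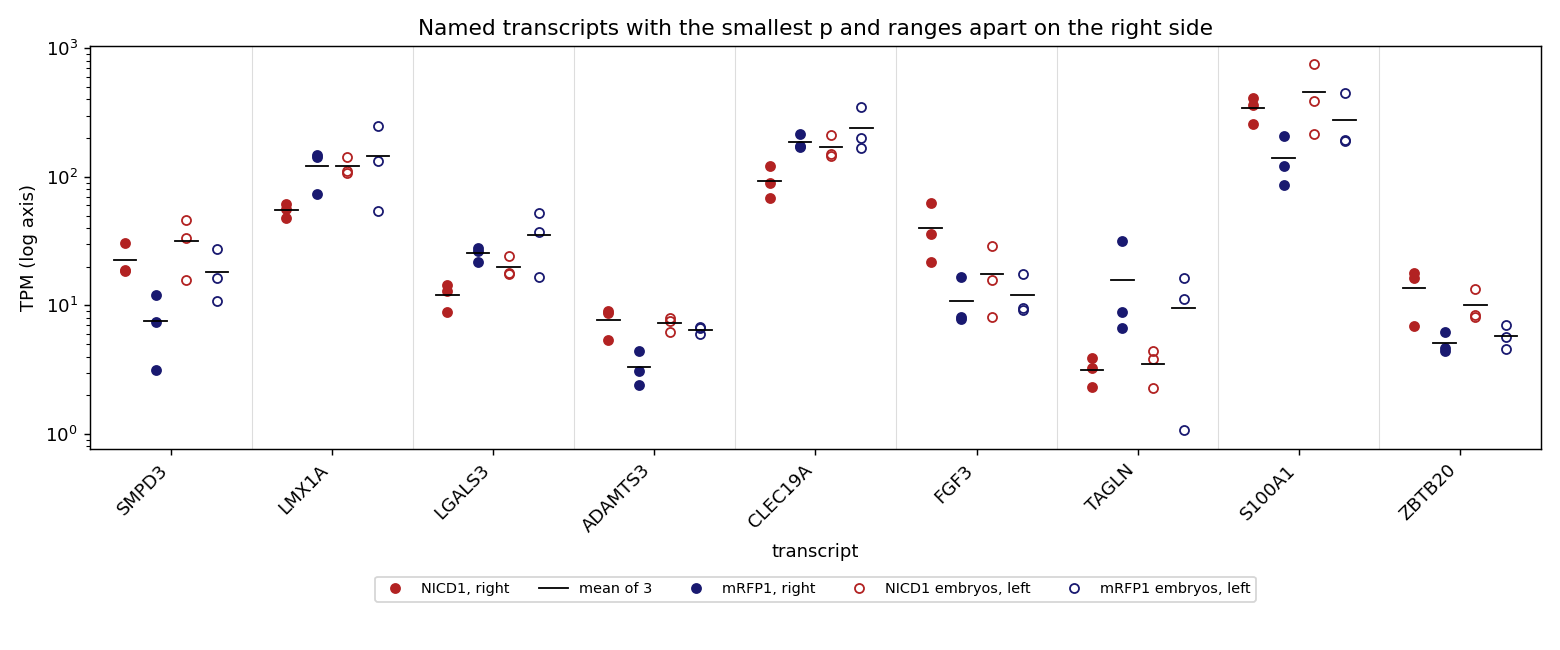
Levels in TPM (log axis) of the 9 named transcripts outside the Notch pathway with the smallest p, drawn with the same colours as for the Notch transcripts and a bar at the mean of 3. The filled red and filled blue points of each transcript do not overlap, as the selection required, while the open points of the left otocysts overlap for 8 of the 9.

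The left otocysts, which had received no plasmid, served as a check for differences between the embryos of the groups. Of 20710 transcripts tested on the left with edgeR, 1 (0.00483%) passed, ENSGALT00000079674.2, which was under 0.05 TPM in all 3 NICD1 embryos and at 6.41, 8.39 and 1.25 TPM in the mRFP1 embryos. DESeq2 called 42 left transcripts (0.203%) and limma-voom 0, with 631 (3.05%) at an unadjusted p under 0.05. Left TPM ranges lay apart with the NICD1 embryos higher for 4.12% of the transcripts and lower for 2.68%, among them HEY2 and ZBTB20, as given above. For HES5.2 the left levels were 9.94, 17.2 and 22.3 TPM against 14.8, 10.0 and 14.6 TPM, which overlapped. HES5.1 and HES5.3 were at lower left means in the NICD1 embryos, with log2 fold changes of -0.56 ± 0.48 and -0.60 ± 0.43. For ENSGALT00000092788.1 the left fold change was 0.41 ± 0.48.

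Taking each embryo's left side into account, with a term for the embryo in a fit of all 30 libraries, 1 transcript of 21637 passed (0.00462%) and 491 (2.27%) had an unadjusted p under 0.05 in edgeR. The transcript that passed was ENSGALT00000092788.1, whose right-minus-left change was larger with NICD1 than with mRFP1 by 3.53 ± 0.39 on the log2 scale (adjusted p = 0.0174). It was higher on the right in 3 of 3 NICD1 embryos and in 0 of 3 mRFP1 embryos. HES5.2 showed the same pattern of sides, 3 of 3 and 0 of 3, and a difference of 2.71 ± 0.62, but did not pass (edgeR adjusted p = 1.00). Its pattern in the NICD1 embryos had entered its selection, and genes called between the sides of the mRFP1 embryos had been removed from its list. In this fit HES5.1 had a difference of 1.87 ± 0.67 and HES5.3 of 1.55 ± 0.51, both above their right-only values. Both were above the left side in 3 of 3 NICD1 and 1 of 3 mRFP1 embryos. In mRFP1 embryo 4, HES5.1 was at 94.6 TPM on the left and 30.4 TPM on the right, and HES5.3 at 188 and 72.7 TPM. HES4 had a difference of -0.35 ± 0.28, nearer to 0. Several transcripts with small p on the right alone were also nearer to 0 in this fit. Among them SMPD3 was at 0.81 ± 0.58, S100A1 at 0.57 ± 0.49, ZBTB20 at 0.40 ± 0.54, LGALS3 at -0.52 ± 0.44 and TAGLN at -1.30 ± 1.01. ADAMTS3 was at 0.93 ± 0.40, FGF3 at 1.26 ± 0.65 and CLEC19A at -0.73 ± 0.50. LMX1A was at -1.20 ± 0.37, but its right-against-left difference in the NICD1 embryos had entered its selection, with the same removal from the list.

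**Figure D4:**
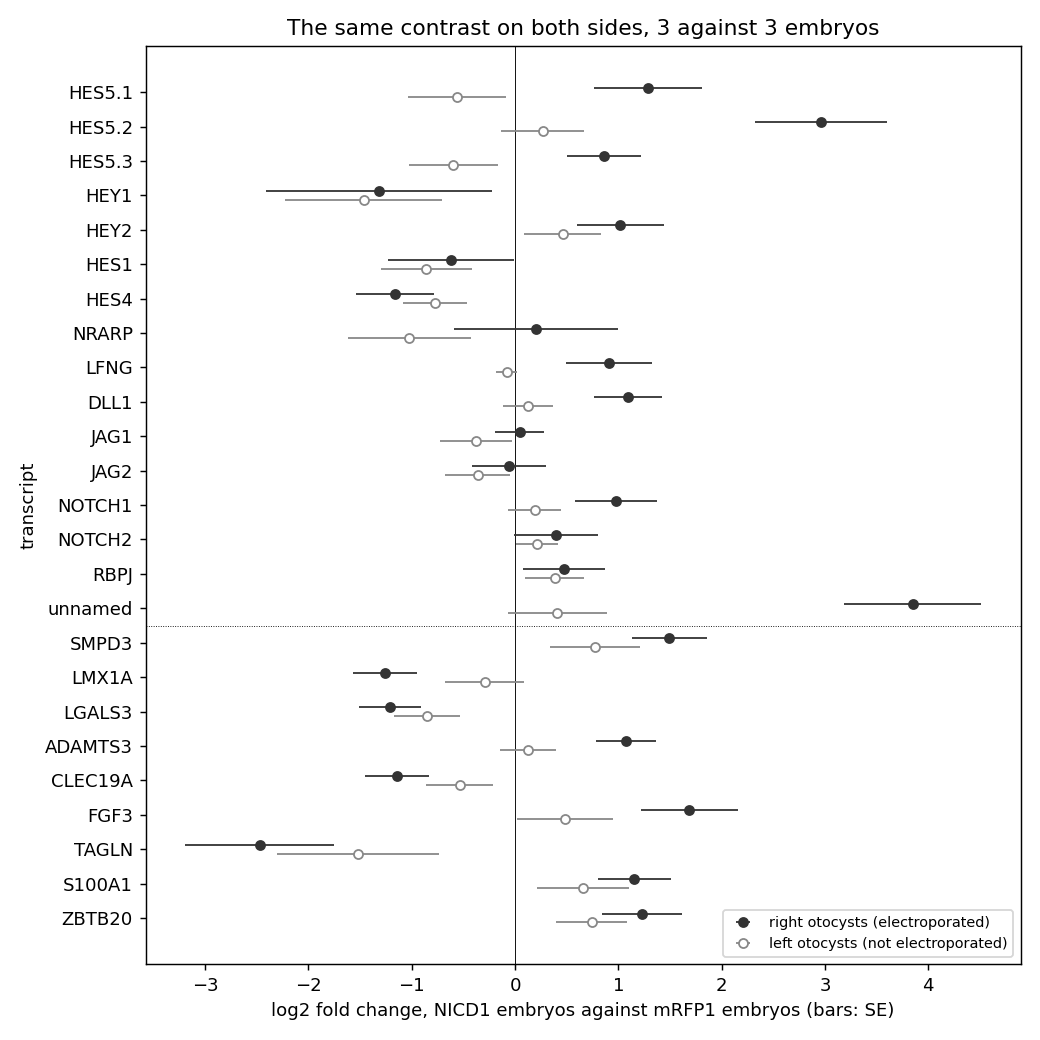
Log2 fold changes of NICD1 against mRFP1 embryos in right otocysts (filled, electroporated) and left otocysts (open, not electroporated), with bars for the SE, for the Notch transcripts above the dotted line and the other named transcripts under it. The right and left points of HES5.1, HES5.2, HES5.3 and the unnamed transcript lie far apart, while those of HES4, HES1 and HEY1 lie close together on the lower side. Smaller gaps are seen for NRARP, FGF3, LFNG, DLL1, LMX1A and ADAMTS3, among others.

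The developmental lists held no transcript that passed. Of 28 neurogenesis transcripts 14 were higher and 14 lower, with a median log2 fold change of 0.01 and 2 of them apart with NICD1 higher, RTN1 and CRMP1, where 4.47% of all tested transcripts were apart in that direction. The most abundant members were STMN1, a regulator of microtubules, and TUBB2B, a beta-tubulin of neurons, at means of 4158 ± 99.8 against 4223 ± 425 TPM and 784 ± 151 against 715 ± 67.8 TPM. The groups overlapped for both. NEUROD1, the proneural factor of otic neuroblasts, was at 94.9, 31.2 and 18.7 TPM in NICD1 and at 57.0, 12.6 and 55.5 TPM in mRFP1, following embryos 19, 4 and 24 rather than the plasmid.

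Of 26 otic patterning transcripts 12 were higher and 14 lower (median -0.19), with FGF3 and ETV4 apart on the higher side and LMX1A and TFAP2C on the lower, beside 4.47% and 1.70% of all tested transcripts. SOX10, a factor of the whole otic epithelium, was at 140.4, 175 and 452 TPM in NICD1 and at 233, 428 and 164 TPM in mRFP1, and the groups could not be distinguished (log2 fold change -0.25 ± 0.34). SOHO-1, a homeobox gene of the otocyst, was at 199.6, 107 and 225 TPM against 292, 193.98 and 444 TPM. The overlap of SOHO-1 came from mRFP1 embryo 23, and the log2 fold change was -1.03 ± 0.37 (edgeR unadjusted p = 0.0162). OTOP1, an otic proton channel, was at 44.8, 20.7 and 58.3 TPM in NICD1 and at 11.5, 24.7 and 7.82 TPM in mRFP1, with a left fold change of 0.91 ± 0.35 beside 1.40 ± 0.50 on the right and 0.51 ± 0.43 with the left side taken into account. OTOP1 was named after its values were seen, as were WNT2B, DACT2, NOXO1, ACTA2, DDIT4 and CDKN1A, described next.

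Of 21 Wnt pathway transcripts 8 were higher and 13 lower (median -0.15). The most abundant, CTNNB1 (beta-catenin) and the secreted modulator SFRP2, had log2 fold changes of 0.12 ± 0.14 and -0.24 ± 0.23, close in size to their SEs. On the left SFRP2 had a log2 fold change of -0.61 ± 0.20. WNT2B was the member with separate ranges, beside 1.70% of all tested transcripts that were apart with NICD1 lower. It was at 3.53, 4.68 and 2.56 TPM in NICD1 and at 17.9, 5.66 and 10.7 TPM in mRFP1. Its left levels were 23.3, 14.3 and 10.3 TPM in the NICD1 embryos and 51.6, 17.6 and 1.68 TPM in the mRFP1 embryos. WNT2B was thus lower on the right than on the left in 5 of the 6 embryos, mRFP1 embryo 24 being the exception. It is on the list picked on the right-against-left difference of the NICD1 embryos, so their part of that count had entered the selection. The right NICD1 levels of WNT2B had entered it too. DACT2, a Wnt antagonist, was at 17.3, 16.8 and 7.66 TPM against 79.6, 27.7 and 13.8 TPM, with a left fold change of -1.21 ± 0.43 beside the right one of -1.66 ± 0.57, which was -0.64 without mRFP1 embryo 4 and -0.15 ± 0.48 with the left side taken into account.

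The list picked on the right-against-left difference of these NICD1 embryos held 22 transcripts and is not independent evidence here. It includes 9 that the Notch, neurogenesis, otic and Wnt lists already count, among them HES5.2, NRARP, LMX1A and WNT2B. Of these, 17 were lower and 5 higher in NICD1 than in mRFP1 (median -0.71), 0 passed, and 19 of 22 were below the left side in all 3 NICD1 embryos. In the mRFP1 group 5 of the 22 were below the left side in all 3 embryos, and 14 were in embryos 4 and 23. The study had removed from its list the genes it called between the sides of the mRFP1 embryos. The mRFP1 counts were thus limited by the selection too. Left otocyst 24 was the lowest of the 6 left otocysts for 18 of the 22. NOXO1, an NADPH oxidase subunit on that list, illustrates it, at 16.3, 31.0 and 41.5 TPM in right NICD1, 76.5, 116 and 40.6 TPM in right mRFP1 and 6.91 TPM in left otocyst 24, where the other left otocysts ran from 102 to 155 TPM.

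Of 22 mesenchymal transcripts listed, 19 were tested, 7 higher and 12 lower (median -0.16). SPARC and LUM, the most abundant, had log2 fold changes of -0.11 ± 0.18 and 0.08 ± 0.30. TAGLN and the smooth-muscle actin ACTA2 were highest in mRFP1 embryo 4, ACTA2 at 229 TPM there and between 22.4 and 35.1 TPM in the other 5, and without that embryo its log2 fold change was -0.21 in place of -1.98 ± 0.71. The same embryo stood out on both sides for DDIT4, a stress and hypoxia response gene, at 2051 TPM on the right and 2185 TPM on the left, where the other right otocysts ran from 33.7 to 168 TPM, and its log2 fold change went from -2.79 ± 1.04 to 0.39 without it. Of the 9 glycolysis and hypoxia transcripts 2 were higher and 7 lower (median -0.28, and -0.43 on the left). The median was 1.22 without embryos 19, 4 and 24, which leaves mRFP1 embryo 23 as the only control. PGAM1 and ALDOC, the most abundant, overlapped between the groups.

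Of 18 chaperone and stress transcripts 8 were higher and 10 lower (median -0.05). HSPA8 and HSP90B1, the most abundant, had log2 fold changes of 0.00 ± 0.39 and -0.03 ± 0.16. CDKN1A, an inhibitor of the cell cycle, was lower in NICD1 with no overlap, at 2.73, 1.502 and 1.23 TPM against 5.59, 4.23 and 4.00 TPM, a log2 fold change of -1.46 ± 0.44 at low counts (13 to 73 per library). HSPD1 was apart with NICD1 higher, at a log2 fold change of 0.12 ± 0.21. Of all tested transcripts, 1.70% were apart with NICD1 lower and 4.47% with NICD1 higher. Of 16 DNA replication transcripts 11 were higher and 5 lower (median 0.06), and PCNA and UHRF1 were apart with NICD1 higher, beside 4.47% of all tested transcripts. The fold changes of PCNA, the sliding clamp of DNA polymerases, and RRM2, a ribonucleotide reductase subunit, were nevertheless 0.09 ± 0.21 and -0.03 ± 0.29. All 14 ribosomal protein transcripts were slightly lower, between -0.31 and -0.13, with a median of -0.22 and of -0.13 on the left. They are short, with a median length of 603 bases, and their median was -0.10 once the length trend was removed.

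**Figure D5:**
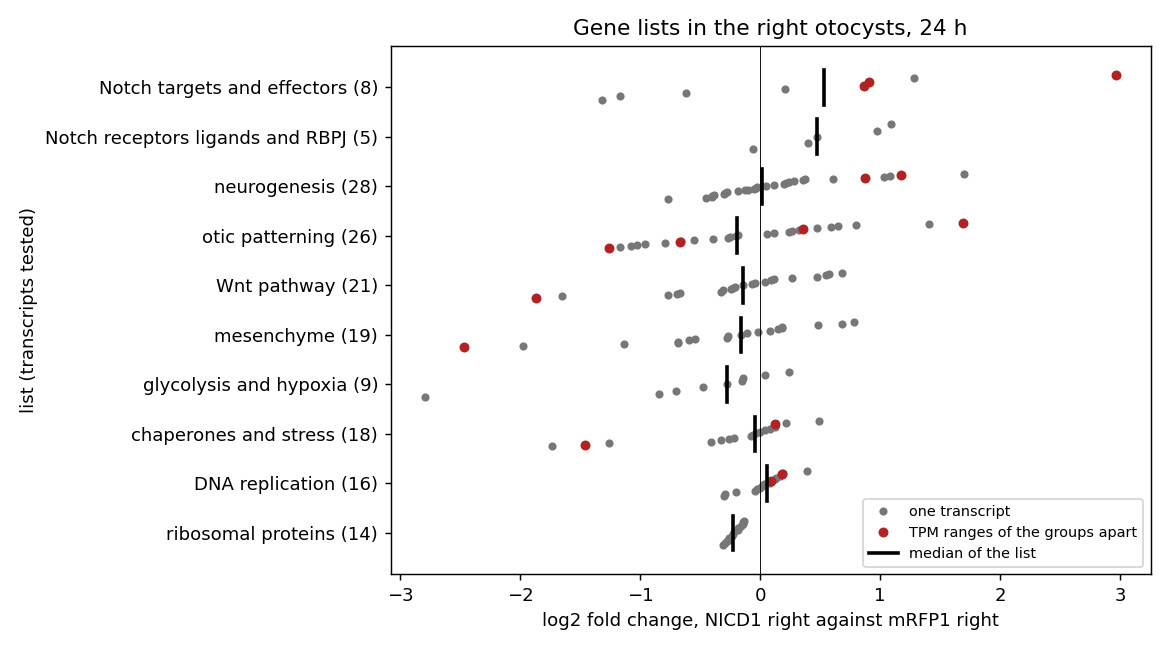
Log2 fold change of NICD1 against mRFP1 right otocysts for each transcript of the 10 lists, with a black bar at the median of the list and red points where the TPM ranges of the groups do not overlap. The Notch targets and effectors range from -1.32 to 2.97, while the 14 ribosomal protein transcripts all lie between -0.31 and -0.13.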

How the data were processed

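RNA of single otocysts was amplified with SMART-Seq v4, tagmented with Nextera XT and sequenced as paired 43-base reads on an Illumina NextSeq. Of tools and builds, the processing notes of the submitters list kallisto, bcl2fastq and GRCg6a. For each of 28756 transcripts the authors deposited an estimated count and a TPM value per library, the TPM being kallisto's level corrected for transcript length and library total. Estimated counts were rounded before testing, and TPM was used for levels. Counts were fractional in all 6 right libraries for other named transcripts too, HEY1, SMPD3 and TAGLN among them, so reads were shared there as well.

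Groups came from the sample labels. The fit was edgeR 4.0.16 (TMM, filterByExpr with a minimum count of 10, robust quasi-likelihood test, R 4.3.3) on all 15 right otocysts with a term per group, which leaves 10 residual degrees of freedom; p-values were adjusted by Benjamini-Hochberg and called at 0.05. SEs were derived from each log2 fold change and its quasi-likelihood F. The left otocysts of all sets, DMSO cultures among them, were fitted in the same way. DESeq2 1.42.0, limma-voom (limma 3.58.1), other scalings, filters, sets of libraries, a length correction and leaving out each embryo were alternatives. The edgeR step was tested on simulated data, set to vary less between replicates than these libraries. That test therefore cannot gauge how many changes the fit would miss here. Each group holds 3 embryos, so precision is limited by their number and intervals over reads would cover counting error only. No pair of replicates agreed within sampling noise (chi-square per degree of freedom 20.7 or more).

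Right and left otocysts shared an embryo, which is where the pairing comes from. Their deviations from the group means correlated between 0.04 and 0.50 within embryos, and 5 of the 6 right otocysts correlated best with their own left side.

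Gene names were taken from the study's tables that pair 900 transcript identifiers with genes (814 with a symbol), and for 5 Notch transcripts by the equality of TPM values in every library with the study's Notch table. The identifiers of 3 transcripts differed in version only, and 3 were not in the deposited tables. HEY2 and JAG1 apart, the names cover genes the authors found responsive in this or a companion experiment, not all genes. Named here are the Notch lists with HEY2 and JAG1, ENSGALT00000092788.1, the 10 named transcripts with the smallest unadjusted p, a mean of 5 CPM or more and separate TPM ranges (HES5.2 among them), and the 2 most abundant members of each other list. OTOP1, WNT2B, DACT2, NOXO1, ACTA2, DDIT4 and CDKN1A, and other transcripts singled out within a list, were named after their values were seen. Members and lists were chosen with earlier results of these data known. Nothing says that embryos were handled on separate days. RefSeq sequences were not used here.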

Additional observations from a re-analysis of the deposited data

Results flagged for a closer look

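The right-minus-left change of ENSGALT00000092788.1 differed between the plasmids, by 3.53 on the log2 scale in the edgeR fit with a term per embryo (adjusted p = 0.0174). It was higher on the right in 3 of 3 NICD1 and 0 of 3 mRFP1 embryos. Whether any reads of this transcript came from plasmid RNA was not tested. HES5.2 was likewise higher on the right in every NICD1 embryo and lower in every mRFP1 embryo, with a difference of 2.71 that did not pass in the same fit (edgeR adjusted p = 1.00). The study had picked HES5.2 on the right-against-left difference of the NICD1 embryos, with genes called in the mRFP1 embryos removed. SFRP2 was also higher on the right in every NICD1 embryo and lower in every mRFP1 embryo, with a small difference of 0.35 (edgeR adjusted p = 1.00). Its right and left levels lay between 64.6 and 135 TPM, and its log2 fold change was -0.61 ± 0.20 on the left beside -0.24 ± 0.23 on the right.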

How the results depend on the processing

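Counts of calls rested on the tool and the libraries. On the right, DESeq2 called 66 and the fit with the replicate block 1, where edgeR, limma-voom and the other scalings, filters and sets of groups called 0, with unadjusted p under 0.05 for 263 (6 libraries alone) to 1372 transcripts (30 libraries, a term per group) across these. Leaving out each embryo in turn gave 0 to 2 calls, the 2 coming without mRFP1 embryo 4: ENSGALT00000092882.1 and ENSGALT00000049754.2, both at 0 TPM in mRFP1 embryos 23 and 24. Transcripts with an unadjusted p under 0.05 numbered 2407 without mRFP1 embryo 23, 1871 without NICD1 embryo 19 and 489 without NICD1 embryo 21, against 825. Leaving out embryos 19, 4 and 24 together was an alternative chosen after seeing the data. It leaves mRFP1 embryo 23 as the only control, so only its fold changes are given. The causes were not tested. On the left, 1 call became 42 with DESeq2, 0 with limma-voom (631 at an unadjusted p under 0.05), 0 with the 6 libraries alone and 0 with the 9 in ovo libraries, and 0 to 2 without each embryo.

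Over 48 named transcripts and 864 alternative values, 804 kept their direction and side of the threshold, 7 crossed it and 53 changed sign; 28 transcripts never changed sign, among them HES5.1, HES5.2, HES5.3, HEY2, LFNG, DLL1, NOTCH1, ENSGALT00000092788.1 and the other 9 named by p. Without embryos 19, 4 and 24 the log2 fold change was 0.21 for HES4, 1.00 for HES1, 1.20 for HEY1, -0.051 for NOTCH2, 0.20 for TUBB2B, -0.11 for CTNNB1, 0.20 for SFRP2, -0.21 for LUM, 0.56 for PGAM1, -0.16 for HSPA8, 0.015 for RRM2 and 1.86 for DDIT4. With the replicate block it was 0.35 for HES1, 0.27 for JAG2, 0.35 for SFRP2, -0.20 for LUM, 0.010 for ALDOC, -0.15 for HSPA8 and -0.14 for PCNA; the block changed no call but that of ENSGALT00000092788.1. With the length trend removed it was -0.15 for JAG1, -0.0066 for CTNNB1 and -0.028 for HSPA8. HSPA8 was also at -0.032 with 30 libraries, -0.0028 with 6 libraries, -0.016 with DESeq2 and -0.016 with median-of-ratios factors, and RRM2 at 0.036 with limma-voom. Leaving out each embryo in turn gave -1.13 to 0.22 for HES1, -3.69 to 0.063 for HEY1, -0.85 to 0.65 for NRARP, -0.18 to 0.32 for JAG1, -0.35 to 0.39 for JAG2, -0.0094 to 0.69 for RBPJ, -0.85 to 0.044 for SOX10, -0.19 to 0.13 for TUBB2B, -0.046 to 0.24 for CTNNB1, -0.18 to 0.28 for LUM, -0.46 to 0.067 for PGAM1, -0.38 to 0.58 for HSPA8, -0.089 to 0.013 for HSP90B1, -0.0044 to 0.21 for PCNA, -0.22 to 0.28 for RRM2 and -3.37 to 0.39 for DDIT4. Motif searches in promoters were not run.

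Limits are the 3 embryos a group, the fluorescence by which otocysts were picked, the mixture with untransfected cells, names for 815 of 20326 tested transcripts, and a first principal component that did not follow the plasmid.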
